A study of Bos taurus and Bos indicus x Bos taurus with 938 samples.

Results

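The comparison of 4-cell with 2-cell bovine embryos made by in vitro fertilisation (IVF) was drawn from 1 set of libraries, those with the title prefix 15286. Table columns were taken as the libraries of that prefix where their number minus 1000 is a number of its titles, and titles giving cell number 4 or 2 were kept. The 4-cell group holds 55 blastomeres of 17 embryos, all 4 of them for 11 embryos. The 2-cell group holds both blastomeres of 59 embryos and 1 of 5 others. Together they are 21.7% of the blastomeres in the table. Another 16 blastomeres that the labels name for these stages are not used here. The link between column and title was inferred from the numbers alone. Embryos are named here by E and the number in the labels of their blastomeres, and blastomeres by adding their letter.

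All embryos in the comparison shared 1 treatment. Per the labels, oocytes came from ovaries of an abattoir, were matured in culture and were fertilised with thawed bull semen, and the organism is given as Bos indicus x Bos taurus. No genotype, transgene or drug distinguishes the groups, and age is given only as the number of cells. Each embryo was taken apart and every blastomere was tagged alone with Tn5 transposase, an enzyme that cuts accessible DNA and attaches sequencing adapters (ATAC-seq). The amount of enzyme was set by batch, and no label names the batch of a library. The letters A to D name the blastomeres of an embryo and do not say which of them share a mother cell.

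A blastomere is one of the cells that the zygote forms by cleavage, in which cells divide without growing. In cattle these first divisions run largely on stored maternal RNA and protein, before the main activation of the embryo's own genome. An open call in ATAC-seq needs DNA that is present, accessible and recovered as a fragment, and these cannot be told apart in the values used here.

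The values were 0 or 1 for each of a set of numbered regions, with no coordinates, genes or sequences. A 2-cell blastomere had up to 106279 open calls (median 10219), and a 4-cell blastomere between 630 and 39020 (median 7441). The region numbers were divided into 29 blocks whose members tended to be open in the same blastomeres. There were 3 further short blocks, named Q, P and T here, and a mixed segment without such structure. Cattle have 29 pairs of autosomes, but whether a block is a chromosome was not tested. The number of these blocks was fixed in the procedure, by keeping the first 28 boundaries, so it is not a finding. Relative coverage is the number of open calls in a block divided by the number expected from the blastomere's own total. It is therefore a share, and in a blastomere that lacks some blocks the others rise. A block under 0.1 of its expected calls is called absent. Blocks were read only in blastomeres with at least 2000 calls in the 29 blocks, which left 48 blastomeres of 15 4-cell embryos, and at 2 cells both sisters of 50 embryos and 1 of 12 others. All values of blocks are over these measured blastomeres.

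**Figure D1:**
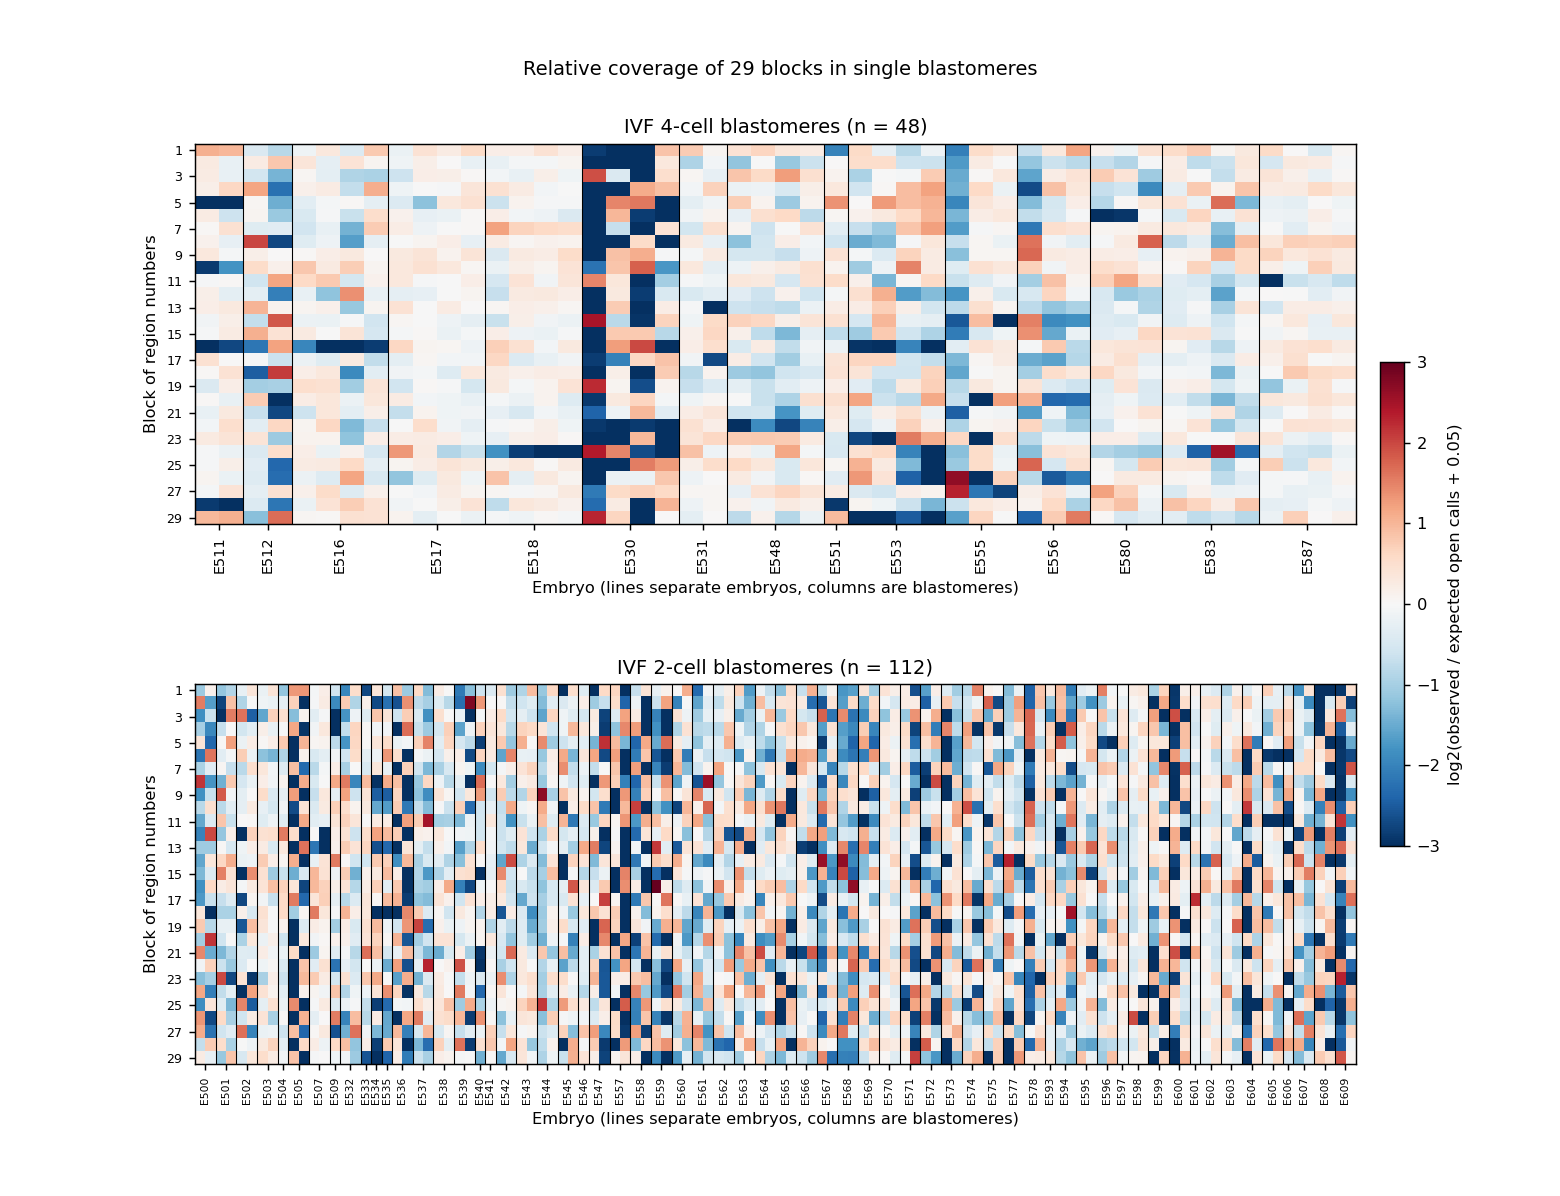
Relative coverage of the 29 blocks (rows) in every measured blastomere (columns), as log2 of observed over expected open calls plus 0.05, with vertical lines between embryos. The darkest blue cells are absent blocks; at 4 cells some rows are blue in all measured blastomeres of an embryo, with each under a coverage of 0.25 and at least 1 absent (E511, E516, E518, E530, E548, E553), while at 2 cells most dark cells stand in 1 of the 2 sisters.

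On average, the sister blastomeres of 4-cell embryos resembled each other in block coverage, and those of 2-cell embryos had opposite profiles. Pearson's r between sisters, over the log2 coverage of the 29 blocks, averaged 0.245 ± 0.406 (SD, n = 14 embryos) at 4 cells and -0.335 ± 0.392 (SD, n = 50 embryos) at 2 cells. The difference of 0.580 had a two-sided permutation p of 1e-05 over embryos, the smallest that 100000 resamples can give, and an adjusted p of 1e-04 over the 10 embryo measures. The ranges overlapped, from -0.466 to 0.922 at 4 cells and from -0.847 to 0.633 at 2 cells. Of the 50 pairs at 2 cells, 37 (74%) were negative, 18 lay below -0.5 and 2 above 0.5. Of the 60 pairs at 4 cells, 17 (28.3%) were negative, 1 lay below -0.5 and 24 above 0.5. Blastomeres of different embryos had a mean r of 0.0022 at 2 cells and 0.016 at 4 cells, with SDs of 0.189 and 0.209. An r beyond 0.5 in either direction was found in 0.535% and 2.06% of such pairs, against 40% and 41.7% of sister pairs.

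**Figure D2:**
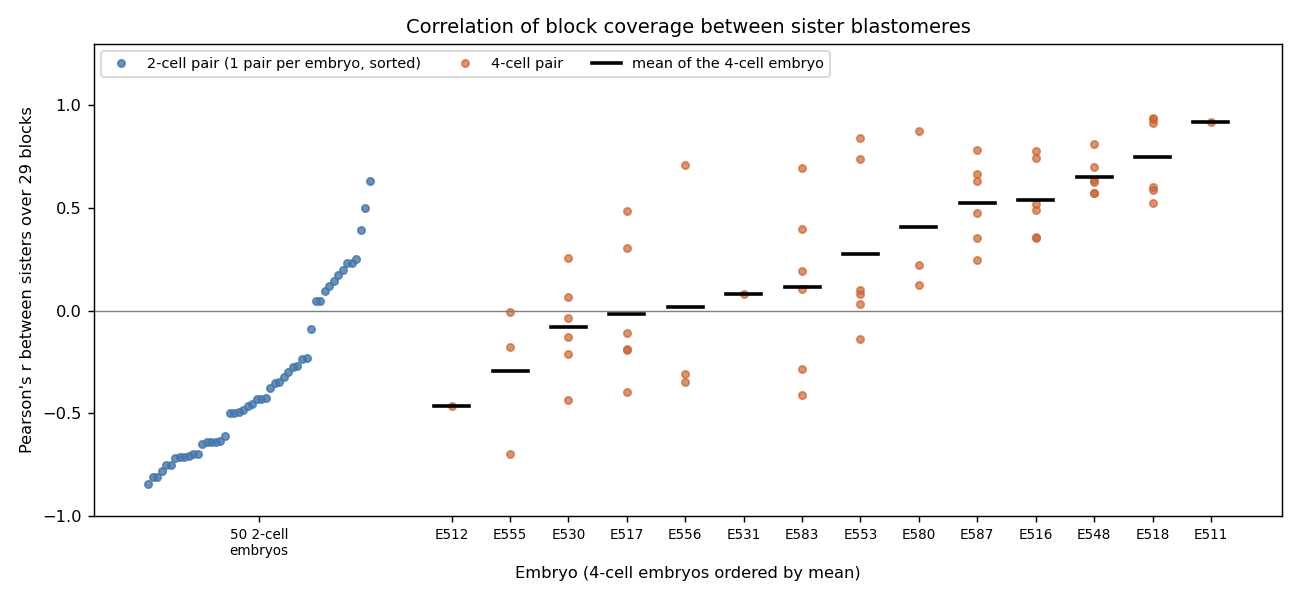
Pearson's r between sister blastomeres over 29 blocks: blue points are the single pairs of 50 2-cell embryos, sorted, orange points the pairs of each of 14 4-cell embryos, and black bars the embryo means. Most blue points lie below 0, and 10 of the 14 embryo means at 4 cells lie above it.

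The 4-cell embryos differed widely among themselves. By the mean over its pairs, embryo E511 had the highest r, 0.922 between its only measured blastomeres A and C. In embryo E518 the 6 pairs ran from 0.52 to 0.94, in embryo E548 from 0.57 to 0.81, in embryo E516 from 0.35 to 0.78, and in embryo E587 from 0.25 to 0.78. All pairs of these 5 embryos were positive. At the other end, embryo E512 had an r of -0.466 between B and C, and embryo E555 a mean of -0.294, with A and B at -0.70.

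In some embryos certain pairs were more alike than the others. In embryo E553, A with B had an r of 0.74 and C with D of 0.84, while the 4 cross pairs lay between -0.14 and 0.10. Embryos E580 and E556 had only 3 measured blastomeres, so a 2nd pair could not be read. In embryo E580, A with B had an r of 0.88, against 0.12 and 0.22 for each with D. In embryo E556, B with C had an r of 0.71, against -0.35 and -0.31 for each with A. In embryo E517, which had no absent block, the pairs ran from -0.40 to 0.48. Embryos E516, E518, E548 and E587, whose pairs were all positive, showed no such split, nor did embryo E530, with pairs from -0.44 to 0.26. The pairs named here were noticed in the values and were not tested.

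Blastomeres of both stages lacked whole blocks, and no difference between the stages was shown. At least 1 of the 29 blocks was absent in 25 of 48 4-cell blastomeres (52.1%) and in 62 2-cell blastomeres (55.4% of those measured). Per embryo, the share was 55.6% ± 35.4 (SD, n = 15) and 54.03% ± 42.8 (SD, n = 62), a difference of 1.52 percentage points (permutation test, adjusted p = 0.884). Its sign turned without embryo E530, at -1.65 percentage points, and under 5 further settings. The number of absent blocks per blastomere was 1.61 ± 2.88 (SD, n = 15) and 2.33 ± 2.84 (SD, n = 62), which did not pass either (permutation test, adjusted p = 0.481). Blastomeres with 5 or more absent blocks made up 5 of 48 (10.4%) at 4 cells, 4 of which were the blastomeres of embryo E530, and 24 (21.4%) at 2 cells.

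Coverage over the blocks was more even at 4 cells. Unevenness, the SD of relative coverage over the 29 blocks, was 0.538 ± 0.257 (SD, n = 15) at 4 cells and 0.743 ± 0.250 (SD, n = 62) at 2 cells, a difference of -0.205 (permutation test, adjusted p = 0.0253). The groups overlapped. At 4 cells the embryos lay between 0.234 (embryo E517) and 1.14 (embryo E530) with a median of 0.467, and at 2 cells between 0.262 and 1.55 with a median of 0.735. The single 4-cell blastomere with the most even coverage, E517C, had an SD of 0.166 over 29795 open calls, and the least even, E530A, an SD of 1.85 over 10958.

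When the sisters of an embryo were averaged, unevenness was 0.284 ± 0.117 (SD, n = 8) at 4 cells and 0.451 ± 0.182 (SD, n = 50) at 2 cells (permutation test, adjusted p = 0.0449). The first averages 4 blastomeres and the second 2. With sisters averaged 2 at a time at both stages, a comparison added after the data had been seen, the difference shrank from -0.167 to -0.0499 and did not pass (permutation test, adjusted p = 0.481). Without embryo E587 it was -0.157 (permutation test, adjusted p = 0.0845).

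**Figure D3:**
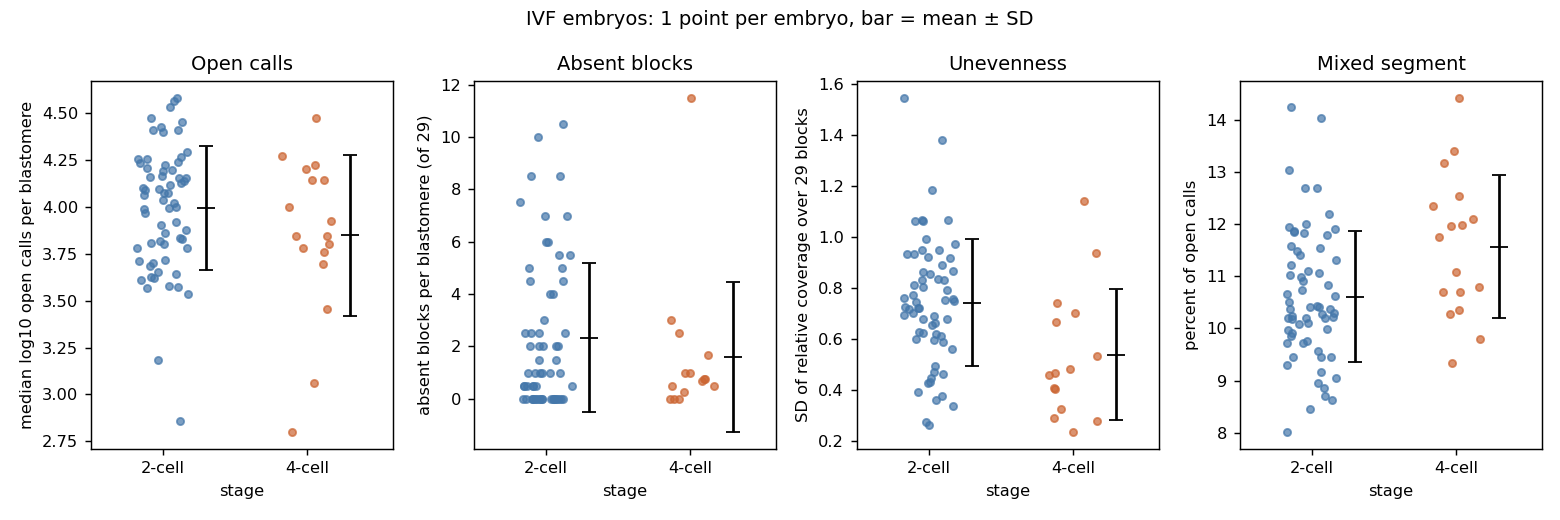
From left to right, median log10 open calls, absent blocks per blastomere, unevenness of block coverage and percent of open calls in the mixed segment, with 1 point per embryo and bars for mean ± SD. The stages overlap in every panel; embryo E530 is the 4-cell point at 11.5 absent blocks.

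At 2 cells, most absences were in 1 sister of a pair. Among embryos with both sisters measured, 97.98% of the blocks absent from a sister were absent in 1 of the 2, in 36 embryos, and 5 blocks were absent in both, in 4 embryos. A further part stood low without being absent in the other sister, so that 9.27% were under 0.25 in both. Any single block was absent in only 1.79% to 12.5% of 2-cell blastomeres. Most absences would therefore fall in 1 sister even if sisters were independent, and a departure from that was not tested. The 2-cell embryo with the most absent blocks was E505, with 12 of 29 in A and 9 in B and none in both. In each of these 21 cases the other sister held the block, at a coverage of 0.697 to 3.03. Blocks 5, 8 and 11, for example, stood at 0.02, 0.03 and 0.03 in E505A and at 1.97, 2.10 and 2.16 in E505B. Blocks 2, 4 and 9 stood at 1.56, 2.19 and 2.33 in E505A and at 0.06, 0.08 and 0.04 in E505B. Its r of -0.847 was the lowest of all 2-cell embryos. Embryo E557 was alike, with 20 such blocks and none absent in both sisters. At the other end, embryo E559 had an r of 0.633, and each of the 9 blocks absent in its blastomere B stood between 0.119 and 0.292 in A.

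At 4 cells, absences came in 1, 2, 3 or all 4 sisters. Among the embryos with all 4 sisters measured, 16 blocks were absent in 1 sister, 9 in 2, 9 in 3 and 1 in all 4. Most of these belong to embryo E530, the 4-cell embryo with the most absent blocks, which lacked 19, 7, 13 and 7 blocks in A, B, C and D. In it 25 of 29 blocks were absent from at least 1 blastomere, and block 22 was absent from all 4. Block 14 stood at 5.54 in E530A, 0.53 in B, 0.08 in C and 1.54 in D. Block 16 stood at 0.07, 2.34, 3.92 and 0.03. In E530 the mean coverage in the sisters that held an absent block had a median of 1.52 and ranged from 0.926 to 3.13.

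Some 4-cell embryos had a block that was low in every measured sister. Low in every sister means absent in at least 1 and under 0.25 in all, a count added after the data had been seen. In embryo E516, block 16 had 11 open calls where 53.1 were expected in A, 2 of 52.6 in B, 13 of 404.02 in C and 10 of 113.01 in D. In embryo E518, block 24 had 23 calls of 99.2 expected in A, 26 of 288.56 in B, 51 of 1431.8 in C and 30 of 490.93 in D. The blastomeres with the higher relative coverage, E516A and E518A, were among those with the fewest calls.

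Embryo E548 was low in block 22, with coverage between 0.0634 and 0.219 over its 4 blastomeres. Embryo E511 was low in blocks 5, 10, 16 and 28 in both measured blastomeres, with 32 calls of 672.95 expected in E511A and 10 of 184.91 in E511C for block 5. Embryo E553 was low in blocks 16 and 29, the latter with 41 of 540.91, 34 of 843.28, 23 of 181.70 and 26 of 582.78 calls in A to D. Block 16 was low in every sister in 3 of the 14 4-cell embryos with 2 or more measured sisters (E511, E516 and E553) and in 1 of the 50 2-cell embryos. That block was picked out after its values were seen.

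The same embryo E553 also held blocks that split its blastomeres into pairs. Block 23 stood at 0.10 and 0.08 in A and B and at 2.91 and 2.06 in C and D. Blocks 24, 25 and 26 went the other way, at 1.33, 2.01 and 2.42 in A, 1.46, 1.15 and 1.28 in B, 0.20, 0.35 and 0.14 in C, and 0.06, 0.04 and 0.05 in D. Embryo E580 lacked block 6 in A and B, at 0.0437 and 0.0827, and held it in D at 0.919.

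**Figure D4:**
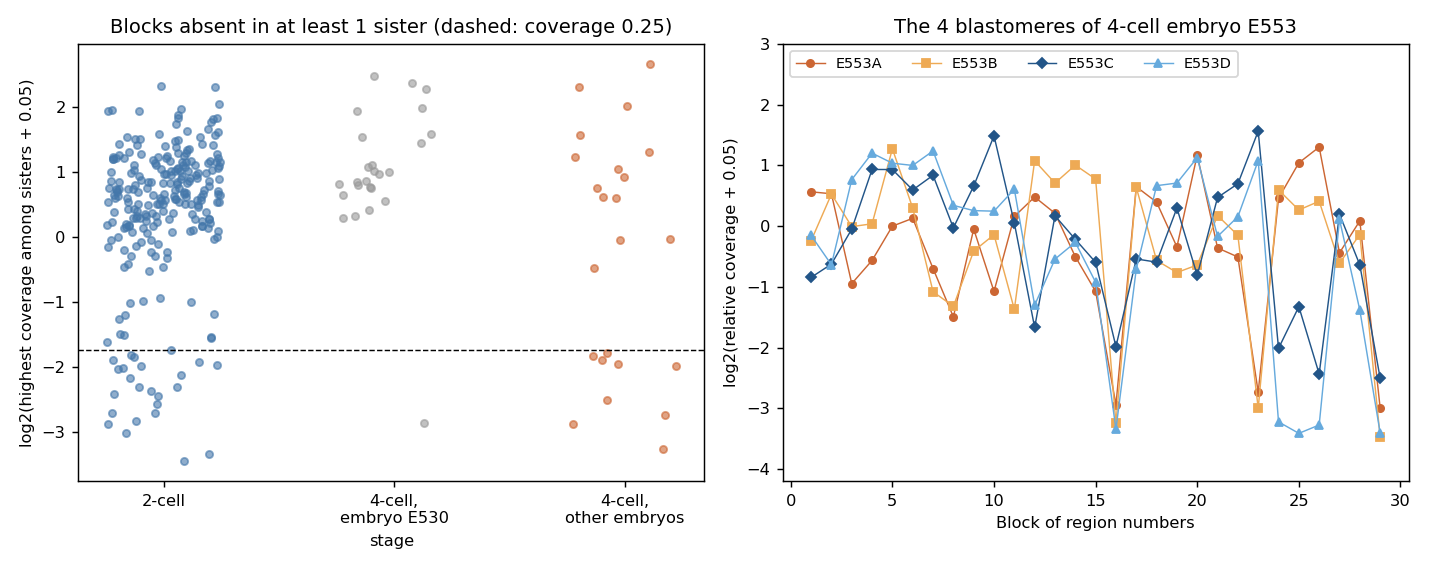
Left, for each block absent in at least 1 sister of an embryo, the highest relative coverage among its sisters (log2 of coverage plus 0.05), with embryo E530 apart and a dashed line at a coverage of 0.25. Right, relative coverage over the 29 blocks in the 4 blastomeres of embryo E553: all are low at blocks 16 and 29, and A and B part from C and D at blocks 23 to 26.

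Over all embryos, 10 of 48 blocks with an absence (20.8%) were low in every sister at 4 cells, and 23 (9.27%) at 2 cells. Without embryo E530 the 4-cell count was 9 of 23 (39.1%). By embryo, 6 of 14 4-cell embryos and 11 of 50 2-cell embryos had such a block, which did not pass (Fisher's exact test, two-sided, p = 0.170). The number depended on which blastomeres were read. With at least 5000 block calls it was 8 of 11 against 4 of 28 embryos (Fisher's exact test, p = 0.000911), and with only embryos whose blastomeres were all measured 5 of 8 against 11 of 50 (Fisher's exact test, p = 0.0300). In the other 11 of 13 alternatives it did not pass. Under 0.1 in every sister, for example, it was 2 of 14 against 4 of 50 embryos (Fisher's exact test, p = 0.604). These p-values were not adjusted. A 4-cell block has to be low in up to 4 blastomeres to be counted and a 2-cell block in 2. With at least 5000 block calls, however, only 2 4-cell embryos had all 4 sisters read.

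Leaving aside blocks low in every sister, the coverage of an absent block in the sisters that held it at 0.1 or more was mostly above the expected 1. Leaving out the low blocks raises these values. So can the rise of the other blocks in a blastomere that lacks some. Several of these blocks come from the same embryo and are not independent. The median was 1.58 at 2 cells, with 85.3% above 1. At 4 cells it was 1.43, with 31 of 38 (81.6%) above 1, and without embryo E530 it was 1.35, with 9 of 14 (64.3%) above 1. Per embryo, the median coverage of absent blocks in sisters that were not under 0.1 was 0.919 ± 0.799 (SD, n = 11) at 4 cells and 1.46 ± 0.747 (SD, n = 36) at 2 cells. The difference of -0.544 did not pass (permutation test, adjusted p = 0.0867). It passed with a limit of 0.05 or 0.2 for absence, after thinning, and in embryos with every blastomere measured, with differences from -1.26 to -0.704.

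No single block was shown to differ between the stages. Of 32 blocks tested, 0 passed (0% called), and 0 had an unadjusted permutation p under 0.05. The blocks with the largest rise were 29, at 1.14 ± 0.550 against 0.862 ± 0.464, block 1, at 1.06 ± 0.422 against 0.869 ± 0.382, and block 25, at 1.08 ± 0.278 against 0.960 ± 0.438 (mean ± SD, n = 15 embryos at 4 cells and 62 at 2 cells). The blocks with the largest fall were 16, at 0.910 ± 0.473 against 1.19 ± 0.835, block 21, at 0.848 ± 0.246 against 1.06 ± 0.555, and block 17, at 0.882 ± 0.240 against 1.09 ± 0.617. The lowest adjusted p was 0.862 (permutation test). Each of these differences was smaller than the SD between embryos.

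Absences fell on all 29 blocks at 2 cells, in 2 (block 27, 1.79%) to 14 blastomeres (blocks 26 and 28, 12.5%). At 4 cells, block 16 was absent in 9 of 48 blastomeres (18.8%), against 8 (7.14%) at 2 cells, and block 22 in 6 (12.5%) against 6 (5.36%). Blocks 19 and 21 were absent in 0 of 48 4-cell blastomeres, and in 9 (8.04%) and 10 (8.93%) 2-cell blastomeres. Blastomeres of an embryo are not independent, and 7 of the 9 absences of block 16 came from embryos E511, E516 and E553, so these counts were not tested.

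**Figure D5:**
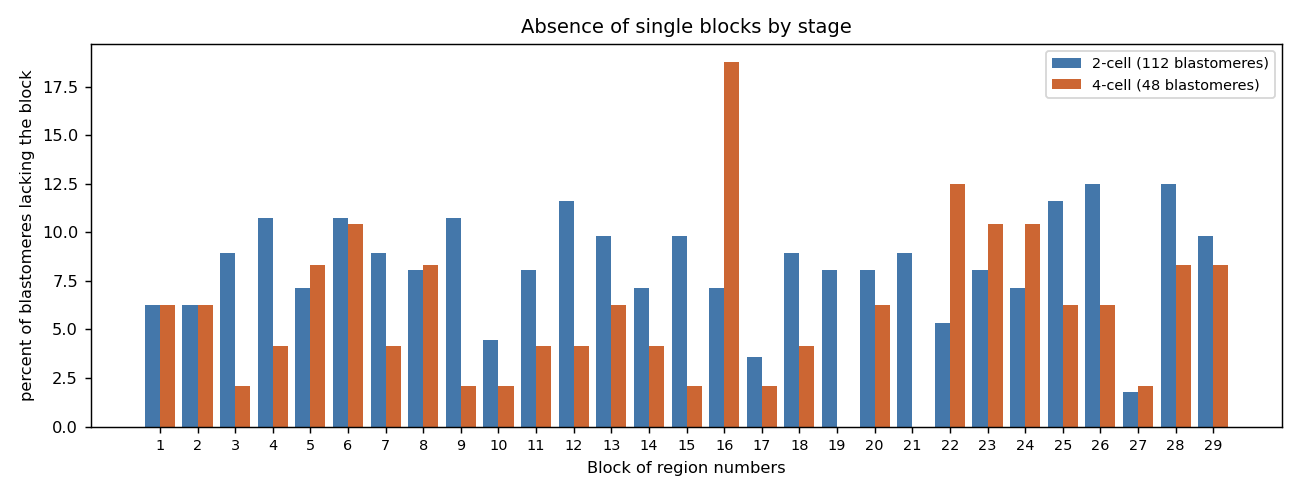
Percent of measured blastomeres in which each of the 29 blocks was absent, at 2 cells (blue) and 4 cells (orange, 48 blastomeres). Block 16 is the highest 4-cell bar at 18.8%, and blocks 19 and 21 have no 4-cell absence.

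The number of open calls was not shown to differ. Averaged over embryos, the median log10 calls were 3.85 ± 0.430 (SD, n = 17) at 4 cells and 3.99 ± 0.331 (SD, n = 64) at 2 cells, a difference of -0.145 (permutation test, adjusted p = 0.196). The lowest 4-cell embryos were E513, with 1 blastomere of 630 calls, and E514, with 2 of 1009 and 1298 calls, which entered no measure of blocks. The percent of calls in the 3538 regions open in at least 25% of these blastomeres was 22.3 ± 7.48 (SD, n = 15) and 20.8 ± 7.88 (SD, n = 62), after thinning to 2000 calls (permutation test, adjusted p = 0.553). Even so, it tended to be lower in embryos with more calls. It was 39.4 in E531 (median log10 calls 3.46) and 38.15 in E597 (3.57), against 7.5 in E557 (4.56) and 8.5 in E565 (4.58). There were exceptions, such as E606 (12.15 at 3.62), and the relation was not tested.

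A larger part of the calls lay in the mixed segment at 4 cells, at 11.6% ± 1.37 (SD, n = 17) against 10.6% ± 1.27 (SD, n = 64). The difference of 0.962 percentage points passed (permutation test, adjusted p = 0.0253). Its size changed with the calls required. The highest 4-cell value, 14.4%, was that of embryo E514, and with only blastomeres of at least 2000 block calls the difference was 0.713 (permutation test, adjusted p = 0.0867) and no longer passed. With only embryos whose blastomeres were all measured it fell to 0.265 (permutation test, adjusted p = 0.844).

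Sisters shared few open regions beyond those shared with other embryos of their stage. With each blastomere thinned to 1000 calls, the Jaccard index (shared over all open regions of a pair) exceeded that between embryos by a mean of 0.00518 ± 0.0168 (SD, n = 15) at 4 cells and 0.00116 ± 0.00639 (SD, n = 58) at 2 cells (permutation test, adjusted p = 0.196). The medians over embryos were below 0 at both stages, at -0.000388 and -0.000946. The 4-cell mean rests on embryo E514, at 0.0633, with the next highest 4-cell embryo at 0.0149. At each stage the embryo with the highest value had the fewest calls of those compared. These were E514, with median log10 calls of 3.06, and the 2-cell embryo E508, at 0.0223 with 3.18. The embryos with the most calls, E555 at 4 cells and E565 at 2 cells, stood at -0.00379 and -0.00329. Depth may therefore still enter this measure after thinning, which was not tested. Thinned to 5000 calls, which leaves out embryo E514, the difference between stages was 0.0131 and passed (permutation test, adjusted p = 0.0189).

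Of 107756 regions tested one by one, 35.6% of those in the table, 1 was called (0.000928% called), open more often at 4 cells. Region V297676, in the mixed segment, was open in 20 of 55 4-cell blastomeres (36.4%, in 9 embryos), where 6.36 were expected. At 2 cells it was open in 4 blastomeres (3.25%, in 4 embryos), where 17.6 were expected. The log2 ratio was 3.79 ± 0.79 (SE; quasi-Poisson score test with limma's moderated dispersion, adjusted p = 0.00351). By the score test alone, without the exact bound, 3 regions were called (0.00278% called), all higher at 4 cells. What lies in that region is not analysed here, since the regions carry no coordinates.

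The next regions higher at 4 cells did not pass. V34249, in block 3, was open in 15 of 55 blastomeres (27.3%) against 3 (2.44%), and V241311, in block 27, in 12 of 55 (21.8%) against 1 (0.813%) (limma-moderated score test, adjusted p = 0.0635 for both). No region was called lower at 4 cells. The 3 with the smallest p were V243231 of block 27, open in 10 of 55 blastomeres (18.2%) against 76 (61.8%), V280733 of the mixed segment, in 10 of 55 (18.2%) against 69 (56.1%), and V6139 of block 1, in 11 of 55 (20.0%) against 71 (57.7%). Their adjusted p by the same limma-moderated test was 0.600, 0.850 and 0.850.

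At an unadjusted p under 0.05 there were 3667 regions (3.40%), of which 2981 were higher at 4 cells and the rest lower. By how often a region was open, the share was 2.93% for 10 to 25% of embryos (453 of the 2643 lower at 4 cells) and 6.15% for 25 to 50% (130 of 887 lower). It was 10.5% for 50 to 75% (89 lower and 32 higher) and 0.780% for 75% and over (14 of 16 lower). In simulated data, the test found 23 of 25 16-fold rises, 7 of 25 8-fold rises and 0 of 25 4-fold rises. It found 0 of 17 falls to 0.0625 of the 2-cell rate. Falls of regions like those simulated, which had medians of 11 to 14.5 calls over all blastomeres, were therefore not detectable after adjustment at this depth. At an unadjusted p under 0.05, the same test found 21 of 25 4-fold rises but 7 of 20 falls to 0.25. Rises were thus found more easily than falls. Of the unchanged simulated regions, 1.06% were under 0.05. Simulated calls were drawn independently given depth and block coverage, so they lacked any further variation between embryos that the real calls may hold. Whether the 3667 regions are more than chance would give was not tested.

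The change of sister correlation from 2 to 4 cells, a rise in IVF embryos, differed from that in SCNT embryos, which are made by placing the nucleus of a somatic cell into an oocyte freed of its own. In SCNT embryos of prefix 15243, the mean r was 0.110 ± 0.208 (SD, n = 15) at 4 cells and 0.146 ± 0.298 (SD, n = 10) at 2 cells. This is a change of -0.0356 in SCNT against 0.580 in IVF embryos. The difference between the changes was 0.616 (permutation test of type within stage, adjusted p = 0.00248 over 4 measures). The changes in calls, absent blocks and unevenness were not shown to differ between the types (permutation test, adjusted p = 0.511, 0.838 and 0.745). Their levels were unlike. In SCNT embryos 8% ± 27.7 (SD, n = 25) of blastomeres had an absent block at 2 cells. At 4 cells it was 6.25% ± 22.8 (SD, n = 20). In IVF embryos these shares were 54.03% and 55.6%, and the difference in level was not tested. Mean log10 calls were 3.61 at 2 cells and 3.63 at 4 cells in SCNT embryos, against 3.99 and 3.85 in IVF embryos. Unevenness was 0.512 and 0.375 in SCNT embryos, against 0.743 and 0.538 in IVF embryos. Whether these levels, or the limit on the mean r of 3 or 4 sisters, bear on the difference between the changes was not tested. Type cannot be told apart from title prefix in that comparison.

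Blastomere E551D is labelled 4-cell, while E551A, B and C are labelled 3-cell, and it was kept as an embryo of its own. Its r was 0.0950 with E511A and 0.207 with E511C, and 0.0690, -0.373 and -0.253 with E551A, B and C, of which E551B had only 767 block calls. It lacked block 28, at 0.0845, as did E511A and E511C, at 0.0858 and 0.0366. The sister correlation and the unevenness of single blastomeres kept their direction and their side of the threshold with E551D left out or put with embryo E511.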

How the data were processed

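Single bovine blastomeres were profiled by ATAC-seq. The submitters' processing notes name bedtools, Bowtie2 2.2.6 and FastQC 0.10.1. Genome build, region choice and the rule for an open call: not given in the sources used here. Values in the deposited table are only 0 and 1, so no reads are counted and depth in reads is unknown. No column of the table was without a sample.

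Open calls were modelled as 1 minus the exponential of minus a blastomere factor times a region factor, fitted in 12 iterations to these 2- and 4-cell blastomeres. Blocks were found from bins of 100 regions in blastomeres with at least 8000 calls. The first 28 boundaries found were kept to divide the 29 numbered blocks, a number fixed in the procedure. The embryo was the replicate. Embryo measures were compared by two-sided permutation tests (100000 resamples) with Benjamini-Hochberg adjustment over 10 measures, 32 blocks or 4 differences between types, at 0.05. A pseudocount of 0.05 was added to coverage before logs.

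Regions open in at least 10% of embryos with at least 1000 calls (16 at 4 cells, 63 at 2 cells) were tested with a quasi-Poisson score on calls summed per embryo, dispersion moderated by limma 3.58.1 in R 4.3.3. The p used is the larger of that and an exact binomial p, adjusted over all regions. On simulated data, which held no variation between embryos beyond depth and block coverage, it called 0 unchanged regions. The rate of false calls in the real data is not known from this. Regions named are those passing, filled up to 3 per direction by smallest p; blocks named are the 3 largest differences each way; embryos named are those with the most absent blocks, the others being chosen after their values were seen.

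Whether embryos of a group came from separate fertilisations is not given. The p-values treat embryos as independent, and may be too small if embryos of a stage shared a fertilisation or batch. The members, lists and tests were chosen with earlier results of these data known. Alternatives changed the calls required, the limit of absence, depth, the embryos included and the region test.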

Additional observations from a re-analysis of the deposited data

Results flagged for a closer look

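The change in sister correlation from 2 to 4 cells differed between IVF and SCNT embryos by 0.616 (permutation test, adjusted p = 0.00248), and this difference between types was itself tested. Type cannot be told apart from title prefix there, and mean calls and unevenness were lower in SCNT embryos at both stages.

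Blastomeres of IVF embryos labelled 3-cell, which entered no comparison, also lacked blocks. Of 11 measured blastomeres in 6 such embryos, 6 (54.5%) had at least 1 absent block. Embryo E515 averaged 9 absent blocks per blastomere and embryo E582 averaged 6, with sister correlations of -0.833 and -0.652, while embryos E549, E551 and E581 had 0. Over 5 embryos the sister correlation averaged -0.181 ± 0.619 (SD). Embryos E510 and E581 had positive values, 0.398 and 0.538, and embryo E551 had -0.357. Of the measured 2- and 4-cell blastomeres of the same prefix, 55.4% and 52.1% had an absent block. No test compared the 3-cell embryos with these.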

How the results depend on the processing

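Sister correlation kept its direction and passed in all 9 alternatives run, with differences between 0.477 and 0.915, and unevenness of single blastomeres in all 8, between -0.287 and -0.187. None of the 9 took equal numbers of sisters at both stages for the correlation. Open calls and absent blocks per blastomere kept their sign and did not pass in any of their 6 and 10 alternatives. No block passed under any of 9 settings, while up to 2 blocks had an unadjusted p under 0.05.

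The share of blastomeres lacking a block changed sign, never passing, with at least 1000 block calls (-0.635), a limit of absence of 0.05 (-6.95), only complete embryos (-7.00), E551D left out or put with E511, and embryo E530 left out (-1.65 in each). Complete embryos alone also gave -0.486 for commonly open regions, 0.265 for the mixed segment (permutation test, adjusted p = 0.844), -0.822 for coverage in the sisters (now passing) and 40.5 percentage points for blocks low in every sister (now passing). Coverage in the sisters also passed after thinning (-0.765) and with limits of 0.05 (-1.26) and 0.2 (-0.704). Blocks low in every sister did not pass in 11 of 13 alternatives. They also passed with at least 5000 block calls (58.4 percentage points), where the averaged unevenness was -0.0245 over 2 4-cell embryos. That measure was -0.157 without embryo E587 and -0.0499 with sisters averaged 2 at a time, neither passing. The mixed segment no longer passed in blastomeres with at least 2000 (0.713) or 5000 (0.529) block calls. Sharing of regions passed when thinned to 5000 calls (0.0131). Except where fewer embryos or calls entered by construction, the cause was not tested.

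Regions called numbered 3 with the score test alone, 7 with factors from commonly open regions and 6 without embryo E530, all higher at 4 cells, and 0 with calls in 25% of embryos, with only blastomeres lacking no block, or with embryos thinned to equal totals. V297676 passed in 5 of the 6 alternatives that tested it, and in blastomeres with no absent block had a log2 ratio of 4.54 (limma-moderated score test, adjusted p = 1).

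No paired analysis was possible because the 2-cell and 4-cell embryos are different embryos that share no replicate number. Leaving out each of the other embryos in turn was not run, since both groups hold more than 5. The settings added after seeing the data are those without embryo E530, averaging 2 sisters, the mixed segment by calls, regions commonly open under other prefixes, and all for blocks low in every sister.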
